A study of Mus musculus with 2 samples.

Results

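Genes of cholesterol and fatty acid synthesis were followed in the mouse chondrogenic line ATDC5, whose cells build cartilage-like nodules in culture, with and without a protein that blocks C/EBP transcription factors. The 33 genes were chosen by role: 7 enzymes of the mevalonate segment, 11 enzymes that turn farnesyl units into cholesterol, 6 genes that regulate sterol synthesis or carry sterol, and 9 genes of fatty acid synthesis and desaturation. A probe belonged to a gene when its RefSeq transcript accession was listed for that gene, which gave 47 probes. All 33 genes had a probe, of 20657 genes with a named probe on the array. All 33 were well above background in both samples by the scanner software's own mark, against 13860 (67.1%) of the 20657 genes. The list was made with earlier results of these data known, so this count describes the list and is no result about it.

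The GFP sample came from a stable ATDC5 line with doxycycline-inducible green fluorescent protein, and the A-CEBP sample from a stable line with doxycycline-inducible A-CEBP, a dominant negative that binds C/EBP factors and prevents their contact with DNA. Both lines received 2 µg/mL doxycycline for 2 days and then insulin, transferrin and selenite (ITS) for 3 weeks. The labels do not say whether each line was a clone or a pool, and no probe was named for either transgene, so transgene expression was not checked. Each group held 1 sample on 1 array, so no difference has a replicate check, no p-value was computed, and effects of the transgene and of the line or dish cannot be told apart. RNA was taken from whole cultures, in which fewer cells of a type and less RNA per cell cannot be told apart.

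Values are intensity of the processed signal, and levels are log2 of that signal relative to the 75th percentile of the array, which was 872 units for GFP and 906 for A-CEBP. Differences are A-CEBP minus GFP on the log2 scale. Each member probe had 1 spot. The scanner's error model gave an error of 0.20 (median, from 0.20 to 0.29) for the members' differences on the probe that stands for each gene, and up to 0.69 on their further probes. Replicate spots of other probes on the array gave an SD of 0.11 (291 probes), and different probes of the same gene an SD of 0.19 over 3601 genes and 0.15 over the 11 members with several probes measured in both samples. With 2 arrays in all, these errors describe the measurement and not the spread of cultures. Of 12 chondrocyte markers, 11 were measured in both samples, beside 67.1% of genes with a probe, and Matn3 was not told apart from background in either. Markers of the labelled cell type were thus present. Their summed signal, as a multiple of the 75th percentile, was 361 for GFP and 499 for A-CEBP, most of it Col2a1 (difference 0.43). With A-CEBP 8 of the 11 were higher by 1.5-fold or more, beside 4.7% of all measured genes. Of these, 3 were higher by 2-fold or more, beside 1.26%, and 0 of the 11 were lower by 1.5-fold, beside 3.8%. The 8 include Col9a1, whose 2 probes differed by 0.63 and 0.19.

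Cholesterol is built in the cytosol and the endoplasmic reticulum from acetyl-CoA by way of mevalonate, squalene and lanosterol. Its enzymes are known to be set together by SREBP transcription factors, which leave the endoplasmic reticulum with the escort protein Scap when sterol is scarce and are held back by Insig proteins when it is plentiful. SREBP factors also drive fatty acid synthesis, and cartilage cells depend on the pathway for the cholesterol that is attached to hedgehog ligands.

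Sterol synthesis genes lay close to equal in the 2 samples, as did most genes on the array, and a few fatty acid genes were farther apart. Of the 33 members, 1 passed the 1.5-fold rule toward A-CEBP, the desaturase gene Scd2, and 0 passed it toward GFP, where 4.7% of all 13860 measured genes passed it upward and 3.8% downward. None of the 33 was 2-fold apart either way, where 1.26% of all genes were higher and 1.7% lower by that factor. With 33 members these background shares correspond to very few genes, so the counts do not set the members apart from the array. The members' median difference was 0.08, beside 0.05 over all measured genes. Of the 33, 28 (84.8%) differed by less than 1.3-fold, a bound chosen after the values were seen, beside 82.3% of all genes.

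**Figure D1:**
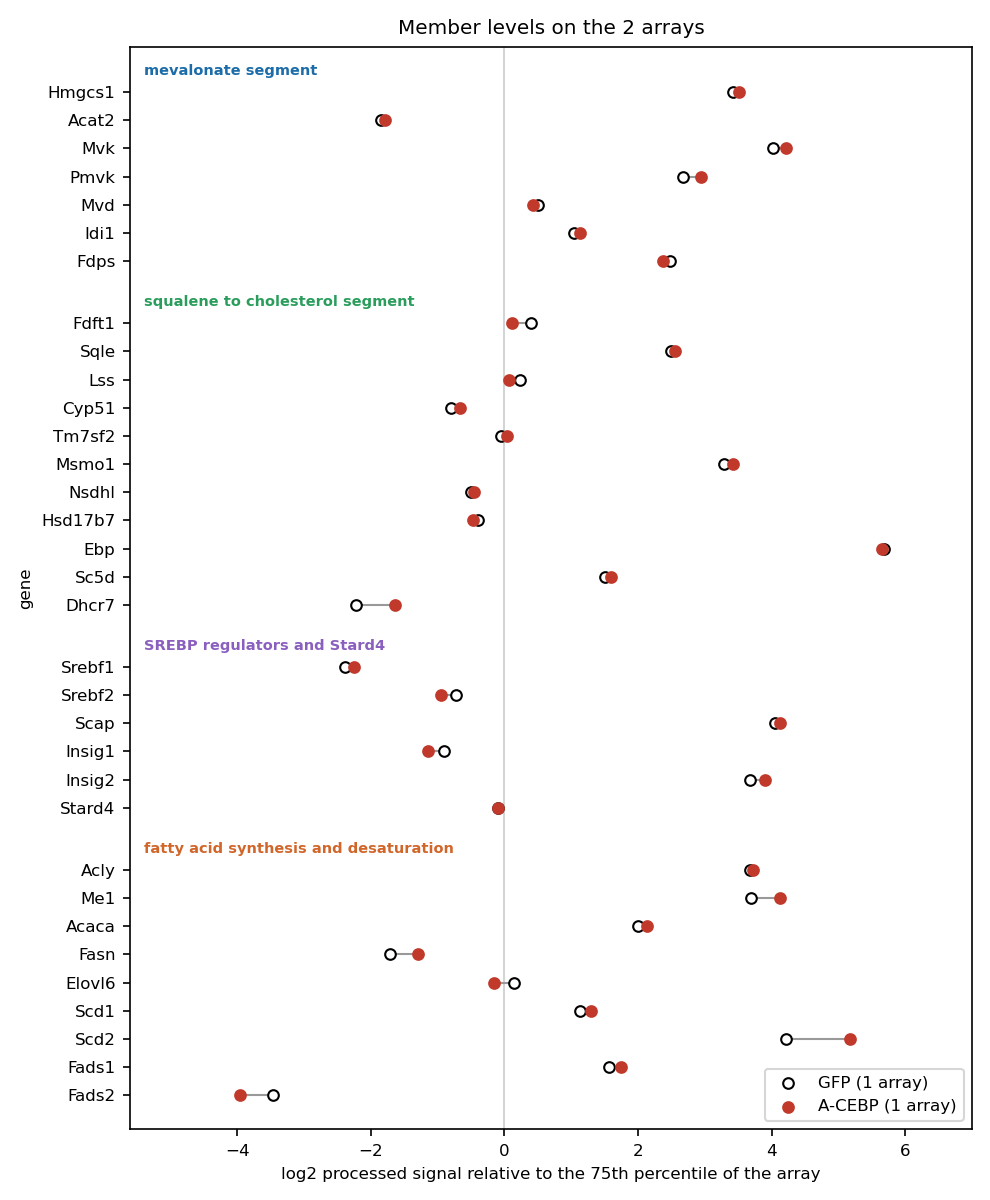
Level of each of the 33 genes in the GFP sample (open circle) and the A-CEBP sample (red circle), as log2 processed signal relative to the 75th percentile of the array, 1 array a group, genes ordered by role. Most pairs of points nearly touch, and the widest gap is that of Scd2, at 4.21 and 5.18. Levels of different genes come from different probes and are not comparable.

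The mevalonate segment turns acetyl-CoA into farnesyl diphosphate. Its 7 genes had a median difference of 0.08, ranged from -0.11 to 0.27, and all 7 were within 1.3-fold, as were 82.3% of all measured genes. Hmgcs1, which encodes the synthase that makes HMG-CoA, read 9399 units with GFP and 10307 with A-CEBP, a difference of 0.08. Mvk, the mevalonate kinase gene, read 14186 and 16819, and its 2 probes differed by 0.19 and 0.12. Pmvk, which encodes the next kinase, had the widest gap of the segment, with 5597 units for GFP and 6985 for A-CEBP. Its 2 probes differed by 0.27 and 0.23, against a scanner error of 0.20. Both kinase genes were higher with A-CEBP by each probe, Mvk by less than the scanner error and Pmvk by little more than it.

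The remaining enzymes of the segment were as close. Acat2, whose product joins acetyl-CoA units, read 242 and 264 units (difference 0.07), and its close relative Acat3 may share signal with it. Mvd, the decarboxylase gene, read 1236 and 1215 units. The isomerase gene Idi1 read 1804 and 1993 units, and Fdps, whose product makes farnesyl diphosphate, 4890.2 and 4695. The differences of Mvd, Idi1 and Fdps were -0.08, 0.09 and -0.11. Spike-in scaling, which moves every gene by the same amount, turned those of Mvd and Fdps positive, but relative to the median of all genes both stayed lower in each of the 11 settings, by less than the scanner error.

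The promoter letters of the pathway are shown because SREBP factors are known to act there with NF-Y. RefSeq promoter windows of 300 bases (250 before the start and 50 after, build GRCm38.p6) were given for 26 of the 33 genes, 35 windows in all, and for 27025 genes overall. No window was given for Fdps, Fdft1, Sqle, Stard4, Scd1, Scd2 or Fads1, so these genes were not searched for any of the letters. The NF-Y letters CCAAT, searched on both strands, were in a window of 21 of the 26 members and of 14 of 15 sterol enzymes, beside 41.1% of all genes. Counted by window they were in 22 of 35 member windows (62.9%), beside 37.4% of all windows. The Sp1 letters GGGCGG were in a window of 22 of 26 members, beside 38.2% of all genes. Counted by window they were in 26 of 35 member windows (74.3%), beside 35.7% of all windows. All genes here are those with a window, measured on the arrays or not, while every member was measured, so the 2 sets are not matched. The sterol response letters TCACNCCAC were found in 1 member, Hmgcs1, beside 1.44% of all genes, and the E-box letters CACGTG in 5 of 26, beside 8.09%. The C/EBP letters TTGCNNAA were in 2 of 26 members, Nsdhl and Dhcr7, beside 12.2% of all genes. A match describes letters in these windows only and is no binding site. Upstream stretches of Hmgcs1 (chr13:119690166-119690315, plus strand), with the sterol response and CCAAT letters in capitals, and of Mvk (chr5:114444089-114444268, plus strand), with 5 CCAAT matches in capitals, read as follows. ATTGG is CCAAT on the opposite strand.
Hmgcs1: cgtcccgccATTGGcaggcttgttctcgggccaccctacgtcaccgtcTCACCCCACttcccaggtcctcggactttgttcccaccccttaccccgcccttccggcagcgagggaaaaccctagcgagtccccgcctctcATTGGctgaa
Mvk: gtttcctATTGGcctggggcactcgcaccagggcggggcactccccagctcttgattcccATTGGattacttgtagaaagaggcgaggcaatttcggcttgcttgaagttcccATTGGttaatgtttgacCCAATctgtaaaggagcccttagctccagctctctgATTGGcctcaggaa

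From squalene to cholesterol, 10 of 11 genes were within 1.3-fold, beside 82.3% of all genes, and the exception was the last enzyme of the path, Dhcr7. The segment's median difference was 0.07, with a range from -0.28 to 0.58. Dhcr7, the reductase gene that completes cholesterol, read 187 units with GFP and 291 with A-CEBP, a difference of 0.58 ± 0.21 (scanner error). That is 1.497-fold, just under the 1.5-fold rule, and it rests on 1 probe. Across the alternatives the value ranged from 0.38 (normexp background) to 0.80 (spike-in scaling), on the A-CEBP side in each, and it passed the rule in 4 of the 11 settings.

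Sqle, which encodes the epoxidase that commits squalene to sterol, read 4896 and 5345 units (difference 0.07). Msmo1, an oxidase gene of sterol demethylation, read 8483 and 9674 units (difference 0.14), and the lanosterol demethylase gene Cyp51 read 501 and 572 units (difference 0.14). These 3 leaned to the A-CEBP sample by less than the scanner error. Ebp, the sterol isomerase gene, read 44688 and 45338 units (difference -0.03), and Sc5d, a sterol desaturase gene, 2491 and 2734 (difference 0.08). Lss, the cyclase gene that makes lanosterol, read 1029.8 and 950.1 units, a difference of -0.17. Relative to the median of all genes, Lss and Ebp stayed lower in each of the 11 settings, while Sc5d and Sqle took either sign, by small amounts.

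For 4 enzymes a further probe gave a check within the array. Tm7sf2, a sterol reductase gene, read 840.1 and 933 units on its brighter probe, and its 2 probes differed by 0.10 and -0.07. Nsdhl, a dehydrogenase gene of sterol demethylation, read 615 and 659 units, with differences of 0.05 and 0.16. The keto-reductase gene Hsd17b7 read 664 and 654 units, with differences of -0.08 and 0.09. For Tm7sf2 and Hsd17b7 the probes thus pointed opposite ways at a size below the error. Relative to the median of all genes, Nsdhl and Tm7sf2 took either sign over the settings and the brighter probe of Hsd17b7 stayed lower, each by less than the error. Fdft1, the squalene synthase gene, read 1147 units with GFP and 978 with A-CEBP on its main probe (difference -0.28), lower in every alternative. Its other probe was dim, at 63.4 units with A-CEBP and 19.5 with GFP, where it was not well above background, which gives a bound of at least 1.86-fold toward A-CEBP. That bound takes the GFP reading at the lowest level marked well above background there, -4.73. The scanner error of the dim probe was 0.69, beside 0.20 for the main probe, so the bound is loose. The 2 probes of Fdft1 disagree, and its difference is uncertain.

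Upstream letters of some of these genes are shown, Msmo1 because its window held several CCAAT matches and Nsdhl and Dhcr7 because theirs were the windows with C/EBP letters. Msmo1 is at chr8:64733624-64733743 (minus strand) with CCAAT matches in capitals, Nsdhl at chrX:72918406-72918515 (plus strand) with CCAAT and C/EBP matches in capitals, and Dhcr7 at chr7:143823067-143823166 (plus strand) with the C/EBP match in capitals. In Nsdhl the C/EBP match overlaps a CCAAT match, and Dhcr7 has 3 windows of which 1 held C/EBP letters.
Msmo1: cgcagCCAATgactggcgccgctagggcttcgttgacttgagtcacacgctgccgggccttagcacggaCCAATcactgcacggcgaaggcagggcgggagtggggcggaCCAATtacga
Nsdhl: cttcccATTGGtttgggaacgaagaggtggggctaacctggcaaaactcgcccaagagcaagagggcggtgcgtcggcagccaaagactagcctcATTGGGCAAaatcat
Dhcr7: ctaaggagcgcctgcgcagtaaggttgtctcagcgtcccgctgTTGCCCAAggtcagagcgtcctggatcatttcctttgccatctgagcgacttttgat
The 2 members with C/EBP letters, of the 26 that had a window, differed between the samples by 0.05 (Nsdhl) and 0.58 (Dhcr7). Scd2 had no window and was not searched.

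**Figure D2:**
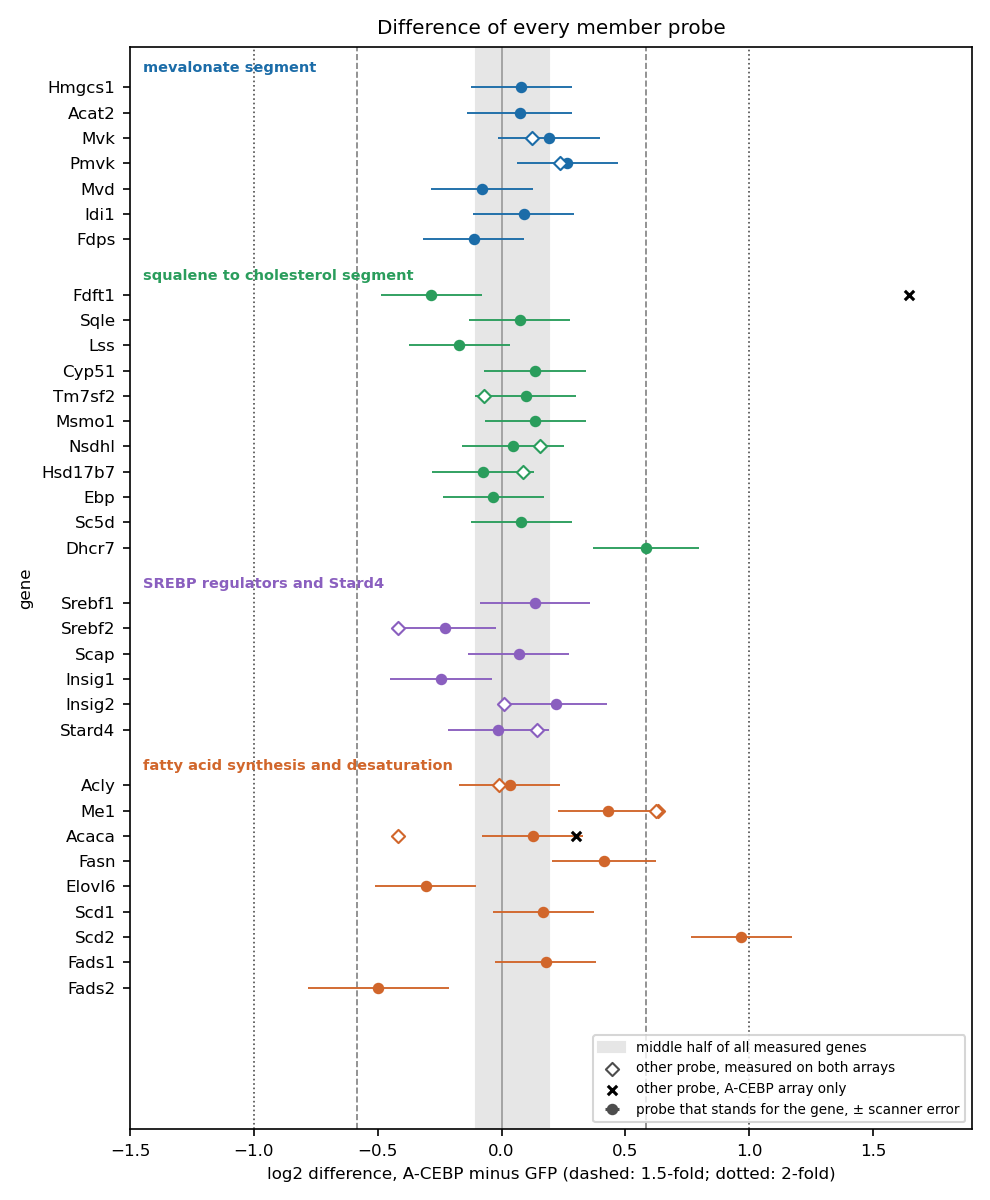
Log2 difference (A-CEBP minus GFP) of every member probe, with filled circles for the probe that stands for the gene and bars for the scanner's error, diamonds for other probes measured in both samples and crosses for probes seen in the A-CEBP sample only. The grey band spans the quartiles of all 13860 measured genes, from -0.10 to 0.19. Among the circles Scd2, Dhcr7, Me1 and Fasn lie farthest to the right and Fads2 farthest to the left, and the cross of Fdft1 lies far from its circle.

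Regulators of the pathway showed small differences of either sign, with a median of 0.03, beside 0.05 over all genes, that turned to -0.02 with cyclic loess and with the authors' deposited values, and to -0.01 with quantile normalization. All 6 were within 1.3-fold, beside 82.3% of all genes. Srebf2, which encodes the SREBP that mainly drives sterol genes, read 527 units with GFP and 468 with A-CEBP. Its 2 probes differed by -0.23 and -0.42, both lower in the A-CEBP sample, and the brighter stayed negative in every alternative, reaching -0.01 with spike-in scaling. Insig1, itself a known SREBP target, read 466 and 408 units, a difference of -0.24 ± 0.21 (scanner error). Insig2 leaned the other way, at 11147 and 13487 units. Its 2 probes, which carry different transcript accessions, differed by 0.22 and 0.01, so the lean rests on 1 of them.

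Srebf1, whose product mainly drives fatty acid genes, read 166 and 190 units (difference 0.14), and the escort gene Scap 14530 and 15837 units (difference 0.07). Stard4, which encodes a cholesterol carrier and is known to respond to sterol loss, read 820.2 and 844 units. Its 2 probes differed by -0.01 and 0.14, with no settled direction.

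Fatty acid genes were the most spread of the 4 groups. Their median difference was 0.17, with a range from -0.50 to 0.97. The median size of difference, without sign, was 0.31, beside 0.09 for the 18 mevalonate and sterol enzymes and 0.15 for all measured genes. Of the 9 genes, 5 were within 1.3-fold, where 17 of the 18 mevalonate and sterol enzymes and 82.3% of all genes were. These are descriptions of 2 arrays, and the difference between the groups was not tested.

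Scd2 gave the largest gap of all members. This stearoyl-CoA desaturase gene read 16151 units with GFP and 32794 with A-CEBP, a difference of 0.97 ± 0.20 (scanner error), or 1.96-fold. Scd2 passed the 1.5-fold rule in all 11 settings run, and 2-fold with spike-in scaling and with no scaling between arrays. Its relative Scd1, which encodes an enzyme of the same reaction, read 1915 and 2234 units and differed by 0.17. The paralogs are close in sequence and may share signal, and each had 1 probe. Adipocytes are known for high desaturase expression. Among 12 adipocyte markers, 7 were measured in both samples, with a median difference of 0.31 and a range from -1.92 to 0.75. Adipoq and Plin1 passed the background mark with A-CEBP only, and Lep, Cidec and Cd36 in neither sample. More of all spots passed that mark on the A-CEBP array, 58.0% beside 54.6% for GFP. Of the 7, 2 were higher with A-CEBP by 1.5-fold or more, Adrb3 (0.75) and Plin4 (0.67), beside 4.7% of all genes. By that rule 1 was lower, Fabp4 (-1.92), beside 3.8%. The list's summed signal, as a multiple of the 75th percentile, was 13.3 for GFP and 12.7 for A-CEBP, and it holds moves in both directions. Of the 11 chondrocyte markers, 8 were at least 1.5-fold higher in the same sample as Scd2, beside 4.7% of all genes, with a median of 0.63. The part of adipocyte-like or chondrocyte-like cells in the differences of Scd2, Me1 and Fasn was not tested.

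Me1, the malic enzyme gene that supplies NADPH for lipid synthesis, was higher in the A-CEBP sample by each of 3 probes. The brightest read 11309 and 15820.2 units, a difference of 0.43, and the others differed by 0.63 and 0.62, past 1.5-fold. Whether Me1 passed the 1.5-fold rule therefore rested on the probe taken, while its direction did not. Fasn, the fatty acid synthase gene, read 266 units with GFP and 368 with A-CEBP, a difference of 0.41 ± 0.21 (scanner error) on 1 probe. The value was 0.21 with normexp background and 0.64 with spike-in scaling. Its upstream stretch at chr11:120824578-120824657 (minus strand) is shown because its window held the most CCAAT matches among the fatty acid genes that had a window. They are in capitals, and 2 of them overlap.
Fasn: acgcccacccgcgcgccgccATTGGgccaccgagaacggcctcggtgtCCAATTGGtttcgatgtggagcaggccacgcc

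Acly and Acaca, whose products act just before Fasn, had smaller differences on their brightest probes. Acly encodes the enzyme that splits citrate into acetyl-CoA and read 11204 and 11896 units, and its 2 probes differed by 0.03 and -0.01. Acaca, the acetyl-CoA carboxylase gene, read 3499 and 3965 units on its brightest probe (difference 0.13), while a dim probe differed by -0.42 ± 0.36 (scanner error). A further dim probe, with a scanner error of 0.44, passed the background mark with A-CEBP only. Its A-CEBP reading was 1.23-fold its GFP reading, a difference of 0.30 that was smaller than the scanner error. This is the measured ratio and no lower bound, because the GFP reading lay above the lowest level marked well above background there. The probes of Acaca disagree and no direction is settled.

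Elongation and polyunsaturated fatty acid genes did not share a direction. Elovl6, the elongase gene for saturated chains, read 965 and 810 units, a difference of -0.31 ± 0.20 (scanner error) that was negative in every alternative. Fads2, a desaturase gene of polyunsaturated fatty acids, was dim, at 79.4 units with GFP and 58.4 with A-CEBP. Its difference of -0.50 ± 0.29 (scanner error) was the lowest of all members, and ranged from -0.55 to -0.28 over the settings. Fads1, which encodes the partner desaturase, read 2579 and 3028 units and differed by 0.18. The desaturase genes among the members thus ranged from -0.50 for Fads2 to 0.97 for Scd2. Of desaturase genes outside the members, named after their values were seen, Scd3 differed by 0.03 on its brighter probe and by -0.93 on another. Fads3 differed by 0.21, and Scd4 passed the background mark with A-CEBP only, the array on which more of all spots passed it.

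Most related genes that were not members were also less than 1.5-fold apart. Of 99 genes in 7 lists, 92 were measured in both samples, with a median difference of 0.08, of which 2 passed the 1.5-fold rule upward and 3 downward, beside 4.7% and 3.8% of all genes. None of 8 other sterol synthesis genes (median 0.08), 10 of sterol uptake and trafficking (0.09), 10 of SREBP activation and degradation (0.17) or 18 of fatty acid oxidation (0.03) was 1.5-fold apart. These counts use the probe that stands for each gene. Vldlr, of the uptake list and named after its values were seen, differed by 0.50 on that probe and 0.71 on another, past 1.5-fold. With the mean over detected probes, 3 of the other pathway genes passed the rule upward, where the main values gave 2. The gap of Slc25a1, the gene of the citrate carrier that brings acetyl units to the cytosol, was 0.39, and it was chosen after its value was seen.

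A list built around the oxysterol receptor LXR, of its targets and related genes, had a median of -0.06. Of its 10 genes, 2 were lower with A-CEBP by 2-fold or more, as were 1.7% of all genes. Ch25h, which encodes an enzyme that turns cholesterol into an oxysterol and is known to respond to interferon, read 603 units with GFP and 191 with A-CEBP, 3.28-fold lower (difference -1.71). Abca1, the cholesterol exporter gene, read 1180.4 and 604 units, a difference of -1.02. It came under 2-fold with spike-in scaling (-0.80), normexp background (-0.93), no scaling (-0.97) and median scaling (-0.997), so its place past 2-fold is not settled. The other 8 genes of the list fell on either side of 0: Abcg1, Nr1h3 and Apoe differed by -0.28, -0.27 and -0.19, and Rxra, Mylip, Lpcat3, Smpdl3a and Nr1h2 by 0.25, 0.18, 0.16, 0.11 and 0.07. None of these 8 was 1.5-fold apart. Macrophages are known for both Ch25h and Abca1. Of 10 macrophage and leukocyte markers, 6 were measured in both samples, with a median difference of -0.25 and a range from -0.84 to 0.38. Of these 6, 2 were lower with A-CEBP by 1.5-fold or more, Cd14 (-0.84) and Lyz2 (-0.83), beside 3.8% of all genes. By that rule 0 were higher, beside 4.7%. Ptprc, Adgre1 and Tyrobp were not told apart from background in either sample, and Cd68 had no named probe. The summed signal of the 9 genes with a probe was 25.3 times the 75th percentile for GFP and 28.3 times for A-CEBP. Most of it was the brighter probe of Itgam, with a difference of 0.23, while another Itgam probe differed by -0.57. The part of such cells in the differences of Ch25h and Abca1 was not tested.

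Of 21 other fatty acid synthesis genes (median 0.06), 1 was past 1.5-fold: Acss2, whose product makes acetyl-CoA from acetate, read 512 and 876 units and was 1.65-fold higher. Its 2 probes differed by 0.72 and 0.60. Of 15 triglyceride and acyl-CoA genes (median 0.03), the lipase gene Mgll was 1.66-fold higher and Acsl4, which activates arachidonate, 1.81-fold lower, at 7017 units with GFP and 4014 with A-CEBP.

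**Figure D3:**
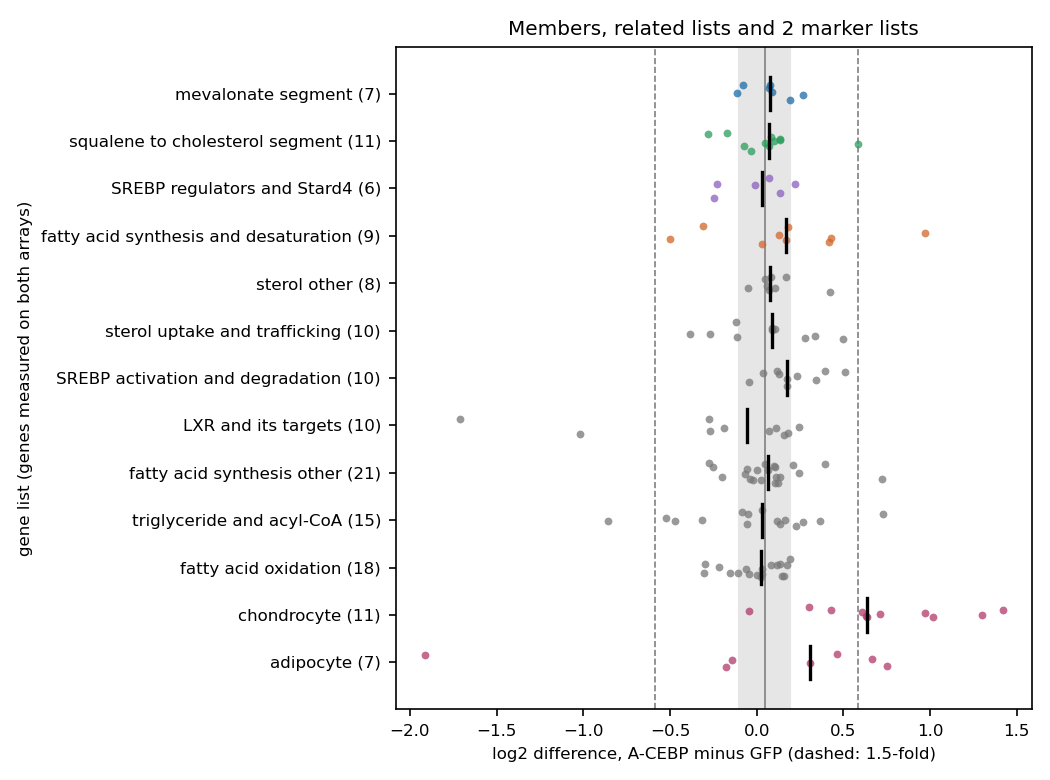
Log2 difference (A-CEBP minus GFP) of each gene measured in both samples, by list, with a black bar at the list's median, dashed lines at 1.5-fold and a grey band and line for the quartiles and median of all measured genes. The 2 sterol segments, with medians of 0.08 and 0.07, lie in or near the band apart from a few genes such as Dhcr7, while 10 of the 11 chondrocyte markers, whose median is 0.63, lie to its right and Comp lies within it.

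The scaling between arrays moved the members with all other genes. Spike-in scaling raised the median of all genes from 0.05 to 0.27 and that of the members from 0.08 to 0.30, so that relative to all genes the members' median was 0.03 both ways. Signs were therefore read against the median of all genes in the same setting. Of the 33 members, 15 lay above that median and 10 below it in each of the 11 settings, and 8 took either side. Those below were Mvd, Fdps, Fdft1, Lss, Hsd17b7, Ebp, Srebf2, Insig1, Elovl6 and Fads2. Read against 0 instead, 18 were higher and 5 lower in each setting, and 10 took either sign.

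**Figure D4:**
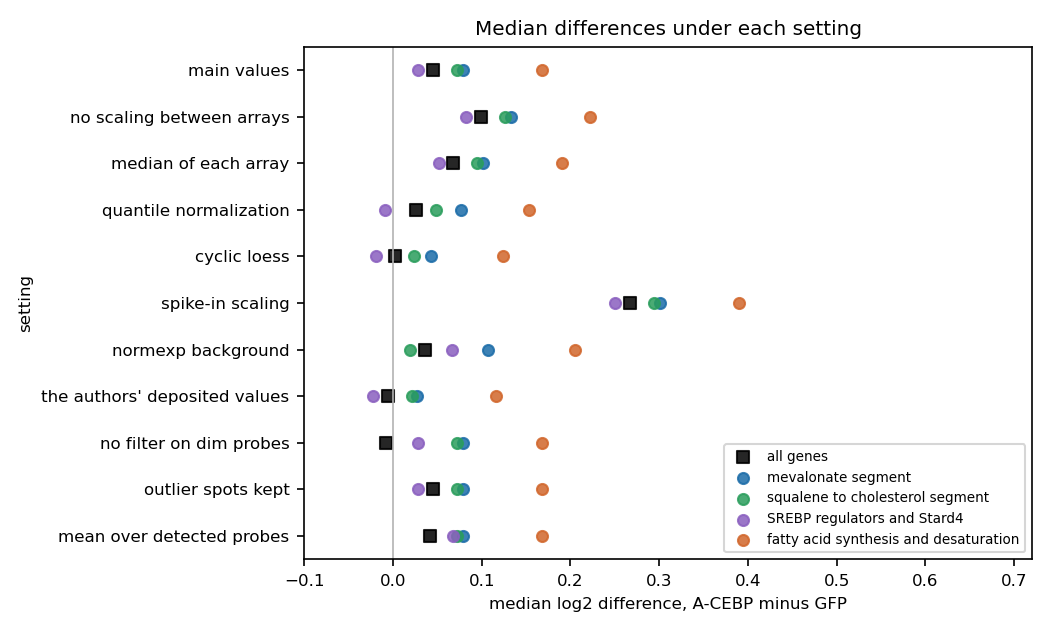
Median log2 difference (A-CEBP minus GFP) of each role group (circles) and of all measured genes (black squares) under the main values and 10 alternatives, 1 array a group. With spike-in scaling every median moves right together, to 0.27 for all genes, and the regulators' median lies below 0 with quantile normalization, cyclic loess and the authors' deposited values.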

How the data were processed

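Per the labels, Cy3 cRNA of 1 GFP and 1 A-CEBP sample was read on 1-colour Agilent arrays. Intensity in the deposited scanner output had its background subtracted and its spatial trend removed within the array, per the file headers; Agilent Feature Extraction 10.10.1.1 is named in the submitters' processing notes. The 2 arrays lay on the same slide and were scanned together. The authors' deposited table holds intensity equal to that signal times 1 constant per array, 1.24 for GFP and 1.15 for A-CEBP, on a linear scale and uncentred, with column medians of 70.9 and 67.4; the reason for the constants is unknown.

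Here log2 of the processed signal minus the array's 75th percentile was used, without control spots and 293 outlier spots. Of 59305 spots, 54.6% (GFP) and 58.0% (A-CEBP) were well above background, and 0 were saturated. Of 55671 probes, 27229 were named through RefSeq accessions (GRCm38.p6). A gene was represented by its brightest probe well above background on both arrays (over 50% of its spots). A probe seen on 1 array was given a bound against the other array, taking the higher of its own level there and the lowest level well above background. Where its own level was the higher, the value is the measured ratio. Differences were sized against 1.5-fold and 2-fold. All members are named; of other lists, up to 4 genes at least 1.5-fold apart. Members and lists were chosen with earlier results of these data known. Alternatives changed scaling, background (limma 3.58.1 normexp, offset 50, on median signals because mean signals were not in the files), value source, filters and probe choice. The procedure was tested on simulated data.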

Additional observations from a re-analysis of the deposited data

How the results depend on the processing

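Of 10 alternatives, none reversed the sign of Scd2, Ch25h, Abca1, Acss2, Acsl4 or Mgll. These are the member and other pathway genes at least 1.5-fold apart on the probe that stands for the gene. Single marker genes were not part of this check. Spike-in scaling moved the medians most: to 0.30 for the members, 0.30 for the mevalonate segment, 0.29 for squalene to cholesterol, 0.25 for the regulators, 0.39 for the fatty acid genes, 0.30 for the other pathway genes and 0.27 for all genes. With it 4 members were at least 1.5-fold higher and 1 at least 2-fold, 8 other pathway genes were at least 1.5-fold higher, and of all genes 1548 passed 1.5-fold upward, 341 passed it downward and 350 passed 2-fold upward, where the main values gave 652, 527 and 174; the share of 2-fold genes that were higher moved from 42.4% to 66.9%. With no scaling between arrays, 2 members were at least 1.5-fold and 1 at least 2-fold higher; with the median of each array and with quantile normalization, 2 were at least 1.5-fold higher. With normexp background 402 of all genes were at least 1.5-fold higher and 97 at least 2-fold. With no filter on dim probes, 5 other pathway genes were at least 1.5-fold higher, and of all genes 1553 passed 1.5-fold upward and 1679 downward, and 603 and 883 passed 2-fold. The causes were not tested. No paired analysis was possible because each group held 1 sample, and for the same reason none could be left out. Dim probes, such as those of Fads2 and the second probes of Fdft1 and Acaca, carry the largest measurement error.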
